A study of Mus musculus with 6 samples.

Results

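ESRRB regions at the ends of protein-coding genes were 1489 of the 13767 regions called in 2iL (10.8%), 1144 of 10970 at 48 h (10.4%) and 921 of 7018 at 96 h after withdrawal of 2iL (13.1%). A region is a stretch of the genome in which the authors' peak caller found more ChIP-seq reads than in the local background. It was counted at a gene end when its highest summit lay within 1 kb of the start or the end of a protein-coding gene of the mouse mm10 annotation. The annotation holds 21900 such genes, and a region stood at an end of 1629 in 2iL (7.44%), 1242 after 48 h (5.67%) and 1005 after 96 h (4.59%). In at least 1 library it was 2138 genes.

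The cells were E14 mouse embryonic stem cells grown in N2B27 medium. In 2iL, the naive condition, the medium also held 3 µM CHIR99021, an inhibitor of GSK3, 1 µM PD0325901, an inhibitor of MEK, and the cytokine LIF. The other groups were the same line collected 48 h and 96 h after these additions were taken out. All cells were fixed with 1% formaldehyde, and chromatin was isolated with a mouse monoclonal antibody against ESRRB. Each condition had 1 ESRRB library, so there was no replicate and no test between conditions: intervals are exact Clopper-Pearson 95% intervals and cover counting error only. The 3 input libraries were not analysed here. Fold enrichment is the authors' own value for each summit over its local background. It was ranked within a library, except that class members were picked for naming by their highest fold in any library. A peak list does not measure expression, so the labelled cell type could not be checked against marker genes.

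ESRRB is an orphan nuclear receptor. It belongs with ESRRA and ESRRG to the estrogen-related receptors, which bind DNA at a single hexamer, AGGTCA, extended at its 5′ side to TCAAGGTCA. In embryonic stem cells ESRRB is part of the naive pluripotency network and acts below GSK3 inhibition. In heart and muscle its relatives are known as regulators of the genes of mitochondrial respiration.

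Promoter sequences are given for 7 of these genes, at or beside the summit. Those of Klk1, Ldhb and Eno1 were chosen for their high folds, those of Atp5l and Sdhb for the respiratory genes, and those of Zfp42 and Nanog for the pluripotency genes. Each was called in all 3 libraries. The 2iL summit lies inside the printed stretch in each case but Atp5l, where it is 47 bp inside the gene and the stretch ends at the start. The sequences are the parts of the RefSeq promoter windows of GRCm38.p6 (mm10) that lie within 80 bases of the 2iL summit and before the annotated start, 5′ to 3′ on the strand of the gene. Capitals mark AGGTCA or its complement TGACCT, with the seventh base of AAGGTCA or TGACCTT where it was present.
Klk1, chr7:44225118-44225278, plus strand: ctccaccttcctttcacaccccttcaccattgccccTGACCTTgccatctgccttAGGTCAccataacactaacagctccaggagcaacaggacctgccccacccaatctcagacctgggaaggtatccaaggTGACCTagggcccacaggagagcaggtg
Ldhb, chr6:142508037-142508197, minus strand: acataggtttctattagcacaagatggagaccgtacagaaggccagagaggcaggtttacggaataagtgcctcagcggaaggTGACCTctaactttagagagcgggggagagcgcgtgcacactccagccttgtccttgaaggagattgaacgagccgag
Atp5l, chr9:44920743-44920775, minus strand: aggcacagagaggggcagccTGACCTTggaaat
Sdhb, chr4:140961154-140961270, plus strand: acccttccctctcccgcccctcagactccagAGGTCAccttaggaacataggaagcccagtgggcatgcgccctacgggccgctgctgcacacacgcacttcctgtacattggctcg
Zfp42, chr8:43307059-43307219, minus strand: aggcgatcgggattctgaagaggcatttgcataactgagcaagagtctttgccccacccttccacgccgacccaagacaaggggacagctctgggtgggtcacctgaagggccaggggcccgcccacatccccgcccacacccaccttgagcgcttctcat
Nanog, chr6:122707299-122707459, plus strand: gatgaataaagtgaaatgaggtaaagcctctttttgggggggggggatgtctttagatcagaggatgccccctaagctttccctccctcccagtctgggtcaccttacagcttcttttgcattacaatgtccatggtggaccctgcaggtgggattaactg
Eno1, chr4:150236617-150236707, plus strand: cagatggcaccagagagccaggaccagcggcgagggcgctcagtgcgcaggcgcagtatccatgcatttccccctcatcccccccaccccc

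The Klk1 promoter held 3 matches of the hexamer, and those of Ldhb, Atp5l and Sdhb held 1 each. The printed stretches of Zfp42, Nanog and Eno1 held 0 matches of these exact letters. Among all 21238 promoter windows of 300 bases in the table, which cover 17469 of the 21900 genes, AGGTCA was present on either strand in 14.7%, the longer AAGGTCA in 4.08% and the full TCAAGGTCA in 0.334%. Each shorter motif is contained in the longer ones, so these shares overlap, and a match is a description of the letters and not of a bound site.

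Windows that held a summit carried the motif more often than windows at large. AAGGTCA was present in 25.7% of the 311 windows with a 2iL summit (95% interval 21.0 to 31.0), 32.4% of 185 at 48 h and 29.1% of 179 at 96 h. Where the summit lay within 1 kb of the start but outside the window, the share was 4.21% of 1045 windows in 2iL, close to the 4.08% of all windows. TCAAGGTCA was present in 2.89% of windows holding a 2iL summit, 5.95% at 48 h and 6.15% at 96 h, against 0.334% of all windows. In windows with both, the median distance from AAGGTCA to the summit was 43 bp in 2iL, 38.5 bp after 48 h and 41 bp after 96 h. The median GC content was 62% in windows with a 2iL summit, 62% in those with the summit outside and 56.3% in all windows. For windows with the summit inside and outside it was 60.7% and 62.7% at 48 h, and 61.3% and 62.3% at 96 h. The part of base composition in the motif shares was not tested.

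**Figure D1:**
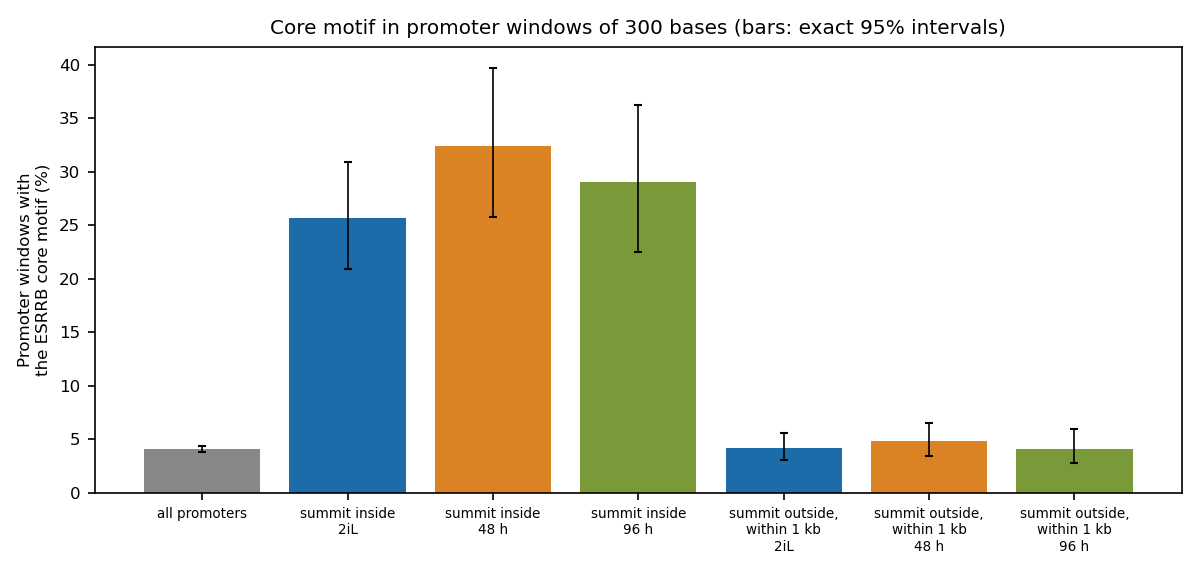
Share of promoter windows of 300 bases that hold the ESRRB core motif on either strand, in percent, for all 21238 windows, windows holding a summit, and windows with a summit within 1 kb but outside; bars carry exact 95% intervals. The windows holding a summit stand at 25.7%, 32.4% and 29.1%, and the others between 4.08% and 4.83%.

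Most of the regions were at gene starts. Strand was known for 17492 genes, and a region stood at the start of 1049 of these in 2iL (6%), 788 at 48 h (4.5%) and 663 at 96 h (3.79%). Counted as regions, 971 were at a start and 297 at the far end of a gene in 2iL, 730 and 231 at 48 h, and 614 and 161 at 96 h. Genes of unknown strand held 293, 237 and 190 regions, and a region near several genes is counted in each kind. Of the 2iL regions at starts, 50.3% lay within 300 bp of the start, compared with 24.9% of those at far ends. The edge of the window cut through a thin part of the distribution: the last 100 bp inside it held 97 regions in 2iL, 69 after 48 h and 44 after 96 h, and the next 100 bp outside held 72, 54 and 43.

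A region does not always stand for 1 gene. In 2iL, 1291 of the 1489 regions were at 1 gene, 194 at 2 genes and 4 at 3 or more, and 98 were at 2 or more starts. The extreme case was the Ugt1a cluster of glucuronosyltransferases, which conjugate lipophilic compounds: 7 genes that share a last exon were counted from 1 region at their common end, with a fold of 4.47 in 2iL, and no region was counted there at 48 h or 96 h. Genes counted from a shared region are not independent of each other.

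Gene-end regions had lower folds than the rest of each list but no fewer reads. The median fold was 5.17 at gene ends and 5.96 elsewhere in 2iL, 4.33 and 5.06 at 48 h, and 4.16 and 4.96 at 96 h. The median number of reads at the summit was 53 at gene ends and 51 elsewhere in 2iL, 84 and 66 at 48 h, and 54.5 and 44 at 96 h. The local background was higher at gene ends, with medians of 9.25 reads against 7.45 in 2iL, 19.4 against 11.7 at 48 h, and 12.6 against 7.41 at 96 h.

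The genes of the respiratory chain and of ATP synthase had the largest shares among the 25 classes. These are the enzymes of the inner mitochondrial membrane that pass electrons to oxygen and make ATP, and 80 nuclear genes of this kind were listed. A region stood at an end of 54 of them in 2iL (67.5%, 95% interval 56.1 to 77.6), 47 at 48 h (58.8%) and 43 at 96 h (53.8%), against 7.44%, 5.67% and 4.59% of all protein-coding genes. Every gene of the list with known strand that had a region had it at its start. In all, 58 of the 80 genes had a region in at least 1 library, 35 had one in all 3, 6 in 2iL alone and 4 only later. The list was written with earlier results of these data known, and the difference from all genes was not tested.

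**Figure D2:**
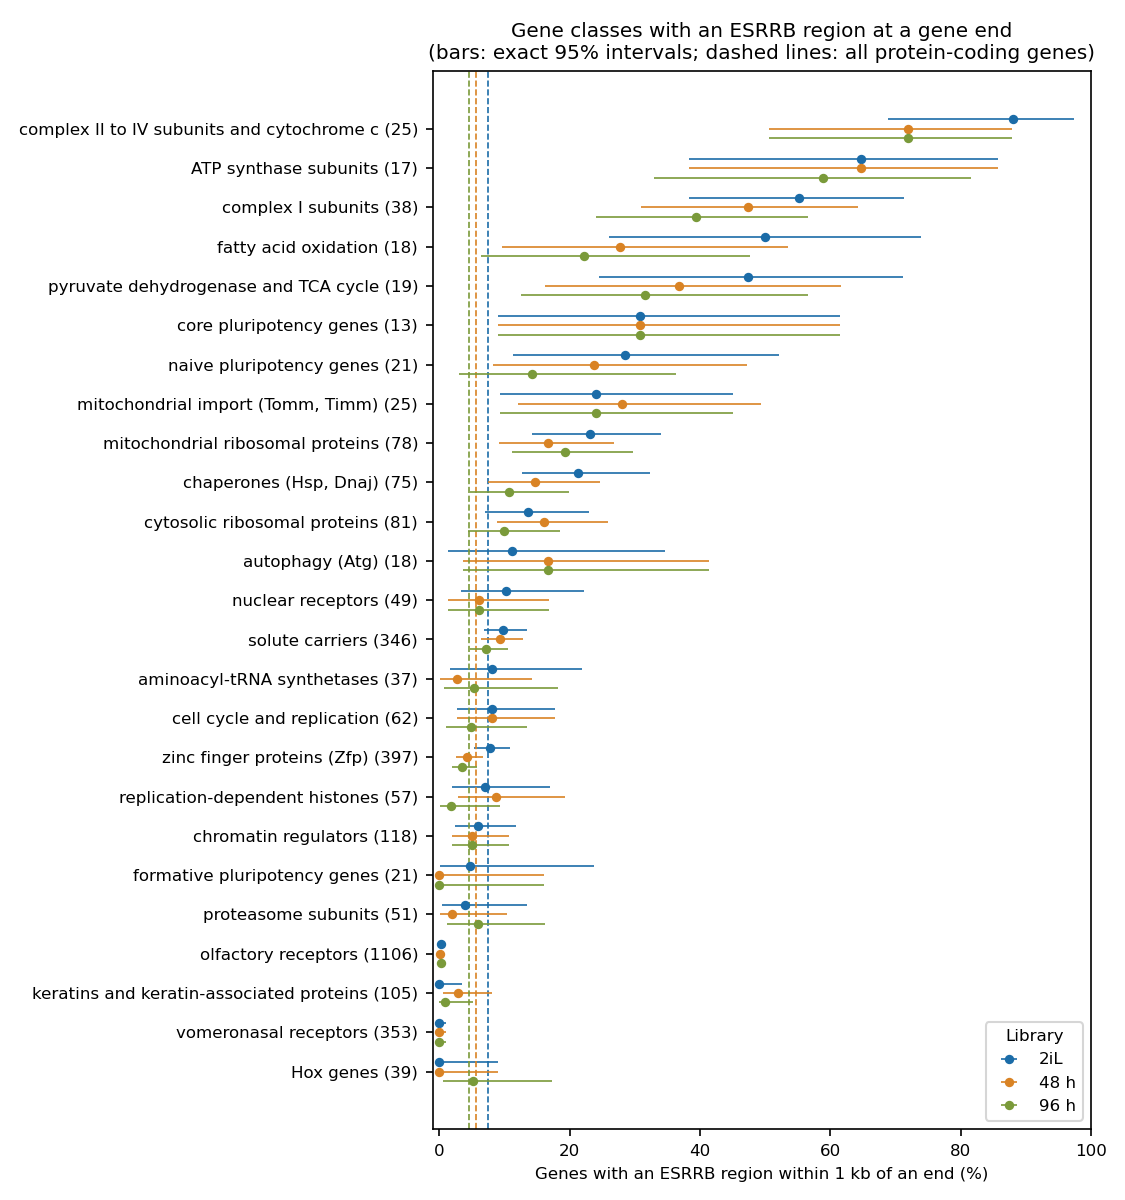
Share of the genes of each class with an ESRRB region within 1 kb of an end, in percent, in the 3 libraries; the number of genes in the class is in brackets, bars are exact 95% intervals and dashed lines give all protein-coding genes. The classes of the respiratory chain and ATP synthase stand at the top, and olfactory and vomeronasal receptors near 0.

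Complex I, which takes electrons from NADH, had a region at 21 of 38 genes in 2iL, 18 after 48 h and 15 after 96 h. Ndufs3, a core subunit, had folds of 9.16, 3.19 and 2.34 in the order 2iL, 48 h and 96 h, which is kept for all sets of 3 folds, and Ndufs4, an accessory subunit, had 8.93 and 3.49 and no call at 96 h. Ndufb5 was called at 7.52, 6.20 and 6.98, from a region that it shares with the start of Mrpl47, a mitochondrial ribosomal protein. Among the weakest were Ndufa10 and Ndufa5, called in 2iL alone at 3.68 and 3.61. No region was within 1 kb of Ndufv1, another core subunit, in any library.

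Complexes II to IV with cytochrome c had the highest share, 22 of 25 listed genes in 2iL, 18 after 48 h and 18 after 96 h. The list does not hold every isoform: it has 11 complex IV genes, and Cox4i2, for example, is not among them. Of all 27 genes with Cox symbols, assembly factors included, 15 had a region in 2iL, 12 after 48 h and 12 after 96 h. All 4 subunits of succinate dehydrogenase, the enzyme that links the tricarboxylic acid cycle to the chain, were called in all 3 libraries. Sdha had folds of 14.9, 6.58 and 8.85, Sdhb 6.25, 3.66 and 3.82, Sdhc 6.59, 6.42 and 6.32, and Sdhd 5.90, 6.33 and 6.89. In complex III, which reduces cytochrome c, Uqcr10 had 9.86, 6.69 and 8.19, Cyc1 7.69, 9.69 and 6.46, and Uqcrc1 8.17, 8.84 and 5.41. In complex IV, the terminal oxidase, Cox7c had the highest 2iL fold, 15.4, with 6.17 after 48 h and 4.82 after 96 h. Cox7b had 11.6, 8.47 and 5.84, and Cox6c had 11.6 and 3.67 and no call at 96 h. The 3 listed genes with no region in any library were Cox5a, Cox7a2 and Uqcr11.

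ATP synthase had a region at 11 of 17 genes in 2iL, 11 after 48 h and 10 after 96 h. Atp5a1, the alpha subunit, had the highest 2iL fold of the whole list, 19, with 9.33 after 48 h and 8.58 after 96 h. Haus1, a subunit of the augmin complex of the spindle, has its end at the same region. Atp5c1, the gamma subunit, had 17.2, 11.6 and 6.82 at a start shared with Kin, and Atp5o had 11.8, 9.94 and 9.47. Atp5b, the catalytic beta subunit, had 8.32, 9.25 and 6.18, and Atp5mpl had 6.67, 11.3 and 6.91. Atp5b and Atp5mpl differ from most of the list in that their 48 h folds were the highest of the 3, although folds of different libraries are not on a common scale.

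**Figure D3:**
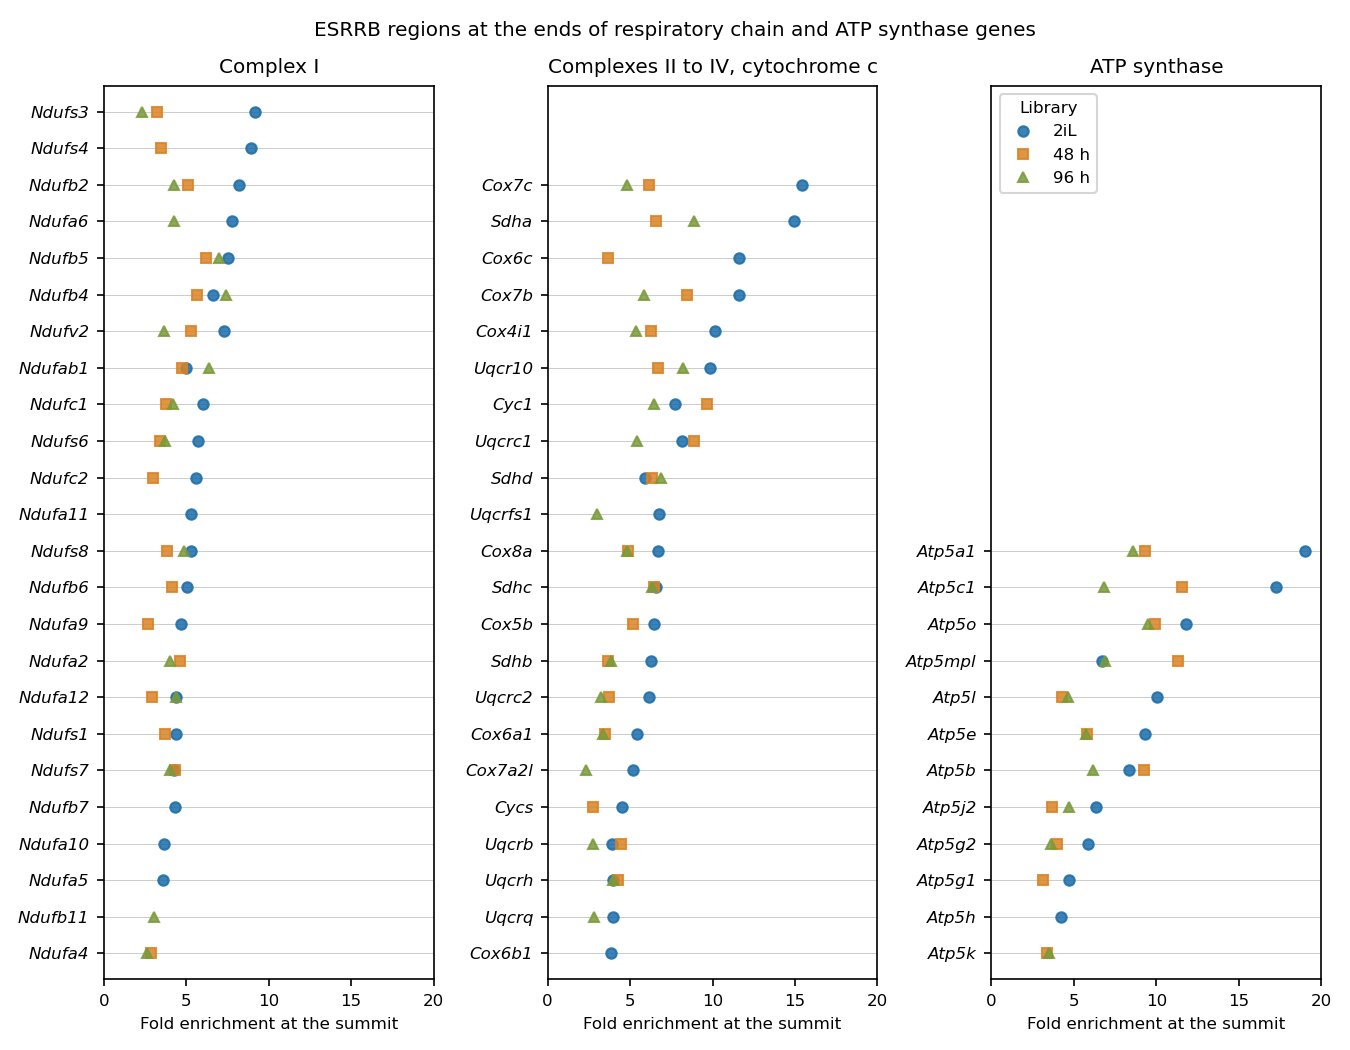
Fold enrichment at the summit for each respiratory chain and ATP synthase gene with a region at an end, by complex and by library (circles 2iL, squares 48 h, triangles 96 h); a missing symbol means that no region was called within 1 kb. The highest values are those of Atp5a1, Atp5c1, Cox7c and Sdha in 2iL, and the folds of the 3 libraries are not on a common scale.

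The summits at these genes lay just inside the gene. Among the 44 genes of the list with a region at a start of known strand in 2iL, 41 had the summit downstream of the start (93.2%, 95% interval 81.3 to 98.6), at a median of 161.5 bp and with the middle 50% between 120.25 and 222.5 bp. At 48 h 32 of 37 did, with a median of 151 bp, and at 96 h 30 of 34, with a median of 145.5 bp. Among all other genes with a region at the start, 52.5% of 1005 had the summit downstream in 2iL, 49.5% of 751 at 48 h and 48.6% of 629 at 96 h. Summits between 50 and 350 bp inside the gene, bounds set after the positions were seen, were found at 75% of the listed genes in 2iL and 25.3% of the others.

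The same placement was seen in each complex. In 2iL the summit was downstream at 18 of 20 complex I genes, 14 of 15 genes of complexes II to IV and cytochrome c, and 9 of 9 ATP synthase genes. The 3 exceptions in 2iL were Ndufb4 at 359 bp, Ndufa9 at 54 bp and Sdhb at 37 bp upstream. It was not limited to the list. Of pyruvate dehydrogenase and tricarboxylic acid cycle genes, 7 of 7 had the 2iL summit downstream, at a median of 273 bp. Mitochondrial import genes (Tomm and Timm) had it at 5 of 6 in 2iL, with a median of 185 bp. At 48 h 3 of 6 had it, and at 96 h 2 of 5, with a median of 104 bp upstream. Fatty acid oxidation genes had it at 5 of 8 in 2iL. The 12 mitochondrial ribosomal genes with a 2iL region at the start did not share it: 5 had the summit downstream, with a median of 16 bp upstream. The gene start used here is that of the outermost annotated transcript. With the nearest annotated start instead, 43 of 48 listed genes had the summit downstream in 2iL at a median of 146.5 bp, against 47.7% of 1128 other genes. Since the promoter windows end 50 bp inside the gene, only 7 windows of these genes held a 2iL summit, and the sequence under the other summits was not analysed here.

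**Figure D4:**
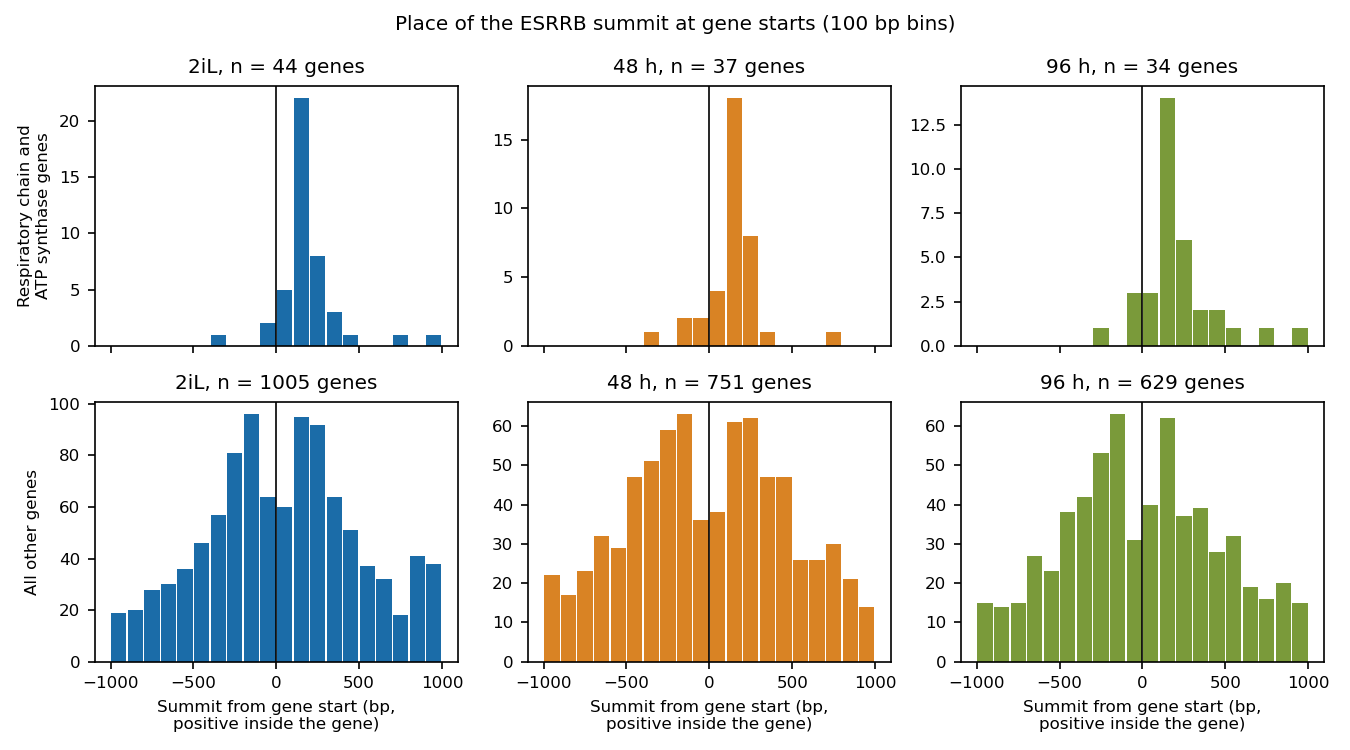
Number of genes by the distance of the ESRRB summit from the gene start, in bins of 100 bp and positive inside the gene, for respiratory chain and ATP synthase genes (upper row) and all other genes (lower row) in the 3 libraries. The listed genes gather just right of 0, with medians of 161.5, 151 and 145.5 bp, and the others spread over both sides.

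These regions were also called again later more often than most. Of the 57 regions at listed genes in 2iL, 48 overlapped a region called at 48 h (84.2%, 95% interval 72.1 to 92.5) and 40 one called at 96 h (70.2%, 56.6 to 81.6); 37 did both and 6 neither. All 13767 regions of 2iL together were called again at 48 h in 50.7% of cases and at 96 h in 35%. The median fold of the listed genes was 6.25 in 2iL, above the 5.17 of all gene-end regions, so strength moved with this share, and its part was not tested. When each library was cut to its 7018 regions of highest fold, the listed genes with a region were 32 in 2iL, 24 after 48 h and 43 after 96 h, so the order of the libraries depends on the length of the lists. All genes with a region were then 2.90% in 2iL, 2.84% after 48 h and 4.59% after 96 h.

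Other mitochondrial pathways had smaller shares, which were above the 7.44%, 5.67% and 4.59% of all protein-coding genes. The pyruvate dehydrogenase and tricarboxylic acid cycle genes feed the chain. They had a region at 9 of 19 in 2iL (47.4%), 7 after 48 h (36.8%) and 6 after 96 h (31.6%). Ogdh, a subunit of oxoglutarate dehydrogenase, had 9.21, 7.07 and 4.77. Fatty acid oxidation went from 9 of 18 genes in 2iL (50%) to 5 at 48 h (27.8%) and 4 at 96 h (22.2%). Etfa, the alpha subunit of the electron transfer flavoprotein, had 11.8, 10.4 and 5.58, and Cpt1a, which admits fatty acids to the mitochondrion, was called in 2iL alone, at 4.85. Hadha and Hadhb, the subunits of the trifunctional protein, share 1 region at their divergent starts, at 4.29, 3.89 and 3.49. Its 2iL summit was 130 bp inside Hadhb and 403 bp upstream of Hadha.

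Mitochondrial ribosomal proteins had a region at 18 of 78 genes in 2iL (23.1%), 13 after 48 h (16.7%) and 15 after 96 h (19.2%). The shares of all protein-coding genes were 7.44%, 5.67% and 4.59%. Mrpl12 had the highest 2iL fold, 9.94, with 5.43 after 48 h and 4.54 after 96 h, while Mrps7 had 5.36, 5.86 and 8.41. The translocases of the mitochondrial membranes (Tomm and Timm genes) had a region at 6 of 25 (24%), 7 (28%) and 6 (24%). Tomm5 was called in all 3 libraries, and its fold of 14.2 at 48 h was among the 10 highest of the gene-end regions of that library. Timm8b shares its region with Sdhd.

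Cytosolic ribosomal proteins have genes that are highly transcribed in most cells. A region stood at the start of 2 of 61 of known strand in 2iL (3.28%) and of 0 at 48 h and 96 h. The shares of all genes of known strand were 6%, 4.5% and 3.79%. Counted at either end, 11 of 81 had a region in 2iL, 13 after 48 h and 8 after 96 h. Rps23 at 8.71 and Rpl23 at 6.27 in 2iL had theirs at the far end of the gene.

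The contrast between these classes at gene starts was also present among genes of high CpG content. In 2iL a region stood at the start of 9.28% of genes whose promoter window had an observed to expected CpG ratio of at least 0.6, and of 2.61% of genes below it. Among genes at or above 0.6, the respiratory chain and ATP synthase genes had a region at 37 of 58 starts (63.8%, 95% interval 50.1 to 76.0), and cytosolic ribosomal proteins at 2 of 52. At 96 h the counts were 28 of 58 and 0 of 52, the latter with an upper bound of 6.85%. The share of all genes at or above 0.6 was then 6.01%, below that bound. In 2iL the upper bound for 2 of 52 was 13.2%, above the 9.28% of all such genes.

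Classes of other housekeeping genes were close to the level of all genes. Aminoacyl-tRNA synthetases, which charge tRNAs, had a region at 3 of 37 genes in 2iL (8.11%), and cell cycle and replication genes at 5 of 62 (8.06%). Genes with proteasome symbols had one at 2 of 51 (3.92%), and 1 of these, Psmc3ip, is no proteasome subunit. Chaperones of the Hsp and Dnaj families were above that level, with 16 of 75 in 2iL (21.3%), 11 after 48 h (14.7%) and 8 after 96 h (10.7%). Hspa9, the mitochondrial Hsp70, had 11.9, 6.95 and 10.0. Hspd1 and Hspe1, the mitochondrial chaperonin pair, share 1 region at their starts, at 5.03 in 2iL and 3.25 at 48 h. Its 2iL summit was 225 bp inside Hspd1.

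Chromatin regulators were near the level of all genes, with a region at 7 of 118 genes in 2iL (5.93%), 6 after 48 h (5.08%) and 6 after 96 h (5.08%). The highest in 2iL was Sirt3, a mitochondrial deacetylase, with folds of 9.33, 5.67 and 3.90. Zinc finger genes named Zfp had 31 of 397 in 2iL, 17 and 14, which is 7.81%, 4.28% and 3.53% beside the 7.44%, 5.67% and 4.59% of all genes. Solute carriers had 34 of 346, 32 and 25, which is 9.83%, 9.25% and 7.23%. The highest solute carrier in 2iL was Slc25a3, the mitochondrial phosphate carrier, with 13.9, 7.56 and 5.76. Olfactory receptors had a region at 3 of 1106 genes in 2iL and vomeronasal receptors at 0 of 353 in all 3 libraries. Hox genes had 0 of 39 in 2iL and at 48 h, and 2 at 96 h: Hoxa5 and Hoxa6, from 1 region with a fold of 3.79.

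Among nuclear receptors, 5 of 49 had a region at an end in 2iL (10.2%), 3 after 48 h (6.12%) and 3 after 96 h (6.12%). These shares were near the 7.44%, 5.67% and 4.59% of all protein-coding genes. Esrra, the close relative of ESRRB, had folds of 13.2, 9.50 and 9.51 at a summit 285 bp upstream of its start in 2iL. Nr0b1, a corepressor of the pluripotency network, had 11.1 and 10.9 and no call at 96 h, with the summit 39 bp upstream in 2iL. Nr1d2, a circadian repressor, was called at 4.88, 4.55 and 5.01. Rara and Nr1h4 were called at their far ends in 2iL alone.

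Of 21 naive pluripotency genes, 6 had a gene-end region in 2iL (28.6%), 5 after 48 h (23.8%) and 3 after 96 h (14.3%). The shares of all protein-coding genes were 7.44%, 5.67% and 4.59%. Zfp42, a classical marker also known as Rex1, had folds of 10.9 in 2iL, 6.41 after 48 h and 7.00 after 96 h. Nanog, whose product is a central naive factor, had 5.80, 5.29 and 2.30, and Prdm14 had 6.37, 6.80 and 6.52. Fgf4 had 6.93 and 3.95 at its far end and no call at 96 h. Tdh, threonine dehydrogenase, on which mouse embryonic stem cells depend for one-carbon units, was called in 2iL alone, at 11.3. Esrrb itself had no region within 1 kb of its ends in any library.

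The core pluripotency genes, which are shared by naive and later states, had the same 4 of 13 genes in each library (30.8%), among them Rif1, Utf1 and Pou5f1. Pou5f1, which encodes OCT4, had folds of 3.85, 4.37 and 3.93 at a summit 854 bp upstream of its start in 2iL, and Utf1 had 3.23, 6.13 and 3.58 at its far end. Of 21 formative genes, which mark the step after the naive state, Zic2 alone had a region, at 2.89 in 2iL. That is 4.76%, beside 7.44% of all genes in 2iL. With 21 genes in a list, 1 gene moves the share by several percentage points.

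The strongest gene-end regions were mostly outside these classes. In 2iL the highest fold, 39.1, was at the far end of Asmt, the last enzyme of melatonin synthesis (chrX:170674633-170678043), which was also highest at 96 h at 29.6 and had 16.4 at 48 h. Next came Nyx, which encodes nyctalopin of the retina, at 22.7, and Hspb7, a small heat shock protein of muscle, at 22.0. Klk1, tissue kallikrein, had 20.6 at a summit 162 bp from its start. At 48 h the highest folds were 21.4 at the far end of Trim66, 19.5 at that of Tal2, a transcription factor of the bHLH family, and 18.9 at Klk1. At 96 h Ldhb, a lactate dehydrogenase subunit, came second at 17.7, and Eno1, the glycolytic enolase, had 15.6 at a summit on its start.

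The 10 strongest gene-end regions of each library were not all called strongly elsewhere, but each had a fold in all 3. Gtf2ird1, a transcription factor of the TFII-I family, had 17.9 in 2iL, 18.1 after 48 h and 9.76 after 96 h. Cdkn1a, the cell cycle inhibitor p21, had 14.1, 16.4 and 14.1 at its far end. Icam1, an adhesion molecule, had 15.5, 16.8 and 12.4. Spp1, osteopontin, had 7.84, 11.2 and 15.2, and Hspb7 had 22.0, 9.18 and 4.29. The order of the 3 folds thus differed between genes, although folds of different libraries are not on a common scale.

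After withdrawal, 54.4% of the 2iL gene-end regions overlapped a region called at 48 h (95% interval 51.8 to 57.0) and 44.6% one called at 96 h (42.0 to 47.2). Regions elsewhere did so in 50.3% (49.4 to 51.1) and 33.9% (33.0 to 34.7). Both later libraries called 38.3% of the gene-end regions and 30.5% of the others. Regions at starts were called at 48 h in 55.9% and at 96 h in 47.2%. Those at far ends alone, at 48.2% and 32.5%, were close to the regions elsewhere.

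Stronger regions were called later more often, and the gap between gene ends and elsewhere was seen at like fold. With the 2iL regions split by fold into 5 equal groups, 79.1% of 211 gene-end regions and 60.8% of 2543 others in the strongest group were called at 96 h. In the middle group the shares were 49.2% and 28.8%, and in the weakest 23.2% and 16.4%. At 48 h the weakest group had 30.3% and 30.4%. With the regions elsewhere weighted to the fold distribution of the gene-end regions, their shares were 45.3% at 48 h and 29.4% at 96 h. Weighted by p in the same way, they were 47.4% and 31.2%. The background reads at gene ends were higher in each library, as given above. In 2iL the gene-end regions were also wider, at a median of 1118 bp against 981 bp elsewhere. More of them held several summits, 52.7% against 39.0%. The part of background reads, width and summit number in the gap was not tested.

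**Figure D5:**
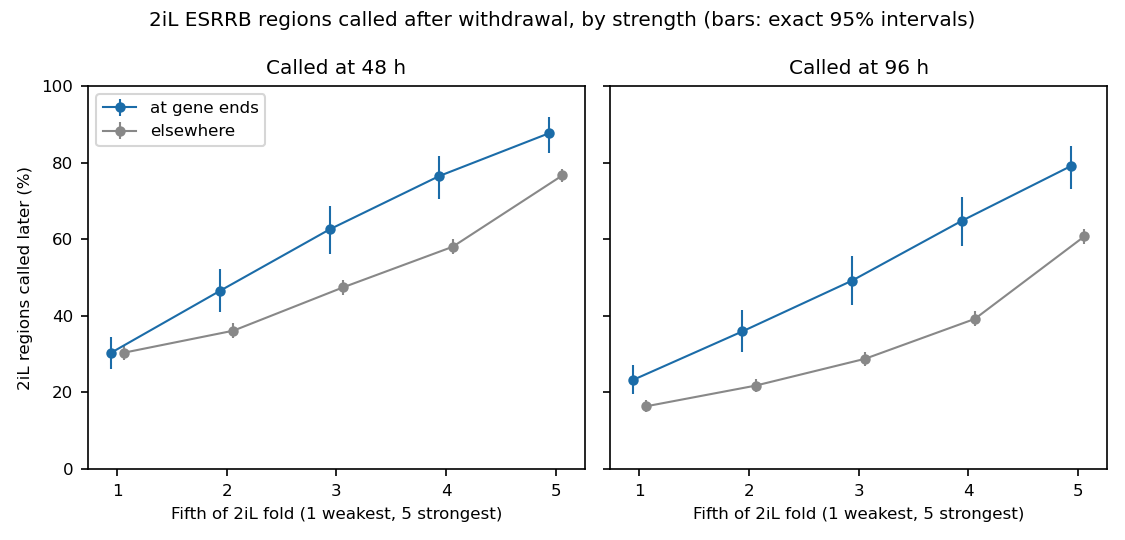
Share of 2iL regions that overlap a region called at 48 h (left) and 96 h (right), in percent, by 2iL fold in 5 equal groups, for regions at gene ends and elsewhere; bars are exact 95% intervals. Gene-end regions lie above the others in each group except the weakest at 48 h, where both are near 30%.

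Promoter windows with the motif were called later more often than those without. Of 75 2iL regions with a summit in a window that held AAGGTCA, 62.7% were called at 48 h (95% interval 50.7 to 73.6) and 52.0% at 96 h (40.2 to 63.7). Of 216 without it, 43.5% (36.8 to 50.4) and 36.1% (29.7 to 42.9) were. The intervals meet at 96 h and not at 48 h. Regions with the motif were also stronger in 2iL, with a median fold of 5.60 against 4.62 and 65 reads at the summit against 49, and the part of strength was not tested.

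Some strong 2iL regions had no call later. In 2iL 39.3% of the gene-end regions were called at neither later time, against 46.4% elsewhere. The strongest of them was at Arhgap23, a GTPase-activating protein, at 13.3. Then came the far ends of Ube2l6, the conjugating enzyme of ISG15, at 13.1, and of Fasn, fatty acid synthase, at 12.7. Osm, a cytokine of the LIF family, had 12.6, and Tdh followed at 11.3. Each had between 74 and 127 reads at the summit, as had the other regions of the 10 strongest.

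Gene-end regions without a counterpart elsewhere were the weaker ones of their list. At 48 h those called in no other library had a median fold of 3.31, against 5.31 for those called in all 3, and at 96 h the medians were 3.18 and 4.77. Of the gene-end regions at 48 h, 70.9% overlapped a 2iL region, compared with 63.5% of all 48 h regions, and at 96 h 73.0% did, compared with 69.5% of all. The strongest at 48 h without a 2iL call were at Pm20d1, which makes N-acyl amino acids, at 9.38, Tlr3, a receptor for double-stranded RNA, at 9.13, and Stard5, a lipid transfer protein, at 8.21. All 3 were called again at 96 h, at 5.25, 3.71 and 2.83. At 96 h the strongest was at the far end of Nuak1, an AMPK-related kinase, at 11.4, with no call at 48 h. Hcn2, a pacemaker channel, had 7.03 at 48 h and 9.07 at 96 h, and Pim2, a survival kinase, had 5.39 and 7.60. By gene, 643 had a gene-end region in the 2iL library alone, 226 in that of 48 h, 150 in that of 96 h and 619 in all 3, and 133 were shared by the later libraries without 2iL.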

How the data were processed

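ESRRB ChIP-seq was analysed from 3 deposited peak lists, 1 for each condition. Per the submitters' processing notes, bcl2fastq 2.20.0.422, BWA, SAMtools, Picard and MACS2 were used with mm10. The tools' roles, the threshold and any use of the inputs were not given in the sources used here. For each summit the authors deposited a fold (a ratio of reads at the summit to local background), a p-value and a q-value as −log10, a score, and an offset in base pairs. The score was not used.

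A region was a unique interval with the summit of its highest fold. Summits were set against protein-coding gene spans of RefSeq GRCm38.p6, and strand came from its promoter table. Regions overlapping by at least 1 bp were counted as shared, and bedtools 2.31.1 gave the same counts. Reads at summits were recovered from fold and p and were whole for 100% of summits, within 0.05, with −log10 p under 290. Read totals are not in the lists, so depth is known only through these reads and through the lowest background, which was 5.04 reads in 2iL, 8.09 after 48 h and 5.84 after 96 h. Distances and overlaps were tested on simulated data. Python 3.11.15, pandas 2.3.3 and scipy 1.17.1 were used.

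The gene classes were defined by symbol patterns. Named genes were those at the 10 strongest gene-end regions of each library, the 10 strongest in 2iL with no later call, the 10 strongest at 48 h and 96 h not called in 2iL, and up to 6 members per class by fold. Some genes that this rule names are left out of the text. Other genes, among them those named as exceptions, weakest or without a region, and the hexamer AGGTCA were chosen after the values were seen. Sequences were by rule those of Zfp42, Atp5l and Nanog; the others were added after the values were seen, and stretches inside the outermost start were left out. The regions and gene classes were chosen with earlier results of these data known. Alternatives were other windows, a q of 1e-05 or less, equal list lengths, other summits, 50% overlap and weighting by strength.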

Additional observations from a re-analysis of the deposited data

How the results depend on the processing

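Within 500 bp of a gene end, 991 regions at 1083 genes were found in 2iL, 731 at 797 at 48 h and 612 at 667 at 96 h. With each list cut to its 7018 highest folds there were 572 at 636 genes in 2iL and 566 at 621 at 48 h, and 32 and 24 respiratory chain and ATP synthase genes. The 2iL gene-end regions called at 48 h were then 60.8% (elsewhere 54.2%) and at 96 h 67.3% (elsewhere 46.1%), and those of 48 h and 96 h called in 2iL were 61.8% and 42.7%. With an overlap of 50% of both regions the same shares were 47.4% (43.7%), 36.1% (28.1%), 62.1% and 58.3%. Weighting the regions elsewhere gave 45.3% and 29.4% by fold and, chosen after seeing the data, 47.4% and 31.2% by p. In each of these settings the gene-end share at 48 h and 96 h was the higher. With the nearest annotated start, also chosen after seeing the data, 47.7% of other genes in 2iL and 43.0% at 96 h had the summit downstream. The other 91 of 121 main values stayed within 1.5 times the count or within the counting interval, as did 427 of 525 class counts; 98 class counts moved further, many of them counts of few genes.

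Limits are 1 library per condition, no input and no read totals, so calls in one library and not another cannot be told apart from depth or enrichment. The lists hold called regions only, and gene starts are those of the annotation, not of transcripts in these cells.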

Other observations

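Gene families chosen after the values were seen, with no test, added to the mitochondrial picture. The Slc25 carriers of the inner membrane had a gene-end region at 11 of 47 genes in 2iL (23.4%). They had one at 14 after 48 h (29.8%) and 10 after 96 h (21.3%). Of all protein-coding genes, 7.44% had one in 2iL, 5.67% after 48 h and 4.59% after 96 h. Besides Slc25a3, the adenine nucleotide carriers Slc25a5 (10.3, 6.42 and 5.42) and Slc25a4 (8.03, 4.37 and 6.75) were called in all 3 libraries. Assembly factors of cytochrome c oxidase had 6 of 17 (35.3%), 4 (23.5%) and 4 (23.5%), with Cox17, a copper chaperone, at 11.9, 4.50 and 4.95. Assembly factors of complex I (Ndufaf genes) had the same 3 of 8 in each library (37.5%), with Ndufaf4 at 10.6, 4.06 and 5.19. Of 11 Coq genes, which serve coenzyme Q synthesis, 3 were called in 2iL (27.3%), 3 after 48 h (27.3%) and 2 after 96 h (18.2%).

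Beside fatty acid oxidation (50% in 2iL) and the pyruvate dehydrogenase and tricarboxylic acid cycle genes (47.4%), glycolytic genes also had a large share. It was 7 of 16 in 2iL (43.8%), 5 after 48 h (31.25%) and 5 after 96 h (31.25%). All protein-coding genes stood at 7.44%, 5.67% and 4.59%. Eno1 and Ldhb were the strongest, Gpi1, glucose phosphate isomerase, had 9.11, 7.25 and 8.10, and Pgk1 was called later only, at 6.82 and 4.92. The Fkbp immunophilins had 6 of 14 in 2iL (42.9%), 2 after 48 h (14.3%) and 0 after 96 h. Fkbp3 was the highest of them, at 8.15 in 2iL and 4.29 at 48 h. Carbonic anhydrases, which hydrate carbon dioxide, had 5 of 16 (31.25%), 4 (25%) and 3 (18.75%), and Car2 was the strongest with 16.7, 11.1 and 14.6.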
